A study of Homo sapiens with 8 samples.

Results

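The genes described here carry growth hormone, insulin and insulin-like growth factor (IGF) signals in SCC25 cells, an established line of squamous cell carcinoma of the tongue, after knockdown of the transcription factor ETS1. They are 10 of the 56638 gene symbols counted: the receptors GHR, IGF1R and INSR, the receptor adaptors IRS1, IRS2 and GRB10, and the IGF-binding proteins IGFBP2, IGFBP3, IGFBP6 and IGFBP7. The genes were chosen by their measured levels and changes in these same comparisons, so their changes, and the calls counted among them, are given as a description and support nothing, and all 10 passed the filter on low counts in both comparisons. The 8 libraries formed 4 groups of 2. In the siRNA control group the line had been transfected with non-targeting siRNAs, and in the ETS1 siRNA group with a pool of siRNAs against ETS1, a transient knockdown. In shCON the cells stably carried a non-targeting hairpin delivered by lentivirus, and in shETS1 they carried a hairpin against ETS1, both after selection in puromycin. The shETS1 libraries came from a single hairpin construct, and cells of all groups grew in serum-containing medium with hydrocortisone, so that hormones supplied by the medium were shared by controls and knockdowns.

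Growth hormone binds GHR, a cytokine receptor without a kinase of its own, which works through the kinase JAK2 and the STAT5 factors. Insulin and the IGFs bind the tyrosine kinase receptors INSR and IGF1R, which phosphorylate the docking proteins IRS1 and IRS2 and so reach PI3K, AKT and mTOR, whereas GRB10 binds the activated receptors and dampens them. The IGF-binding proteins hold IGFs outside the cell, and squamous carcinoma and keratinocyte cultures are known to secrete several of them.

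Total counts ranged from 15954616 to 25953213 per library. Counts were divided by a scaled library size (TMM) to give CPM, the read count scaled to a fixed library total, separately in the siRNA and the shRNA table, so levels are not comparable across the tables. ETS1 itself fell in both knockdowns. It stood at 288 and 248 CPM in siRNA control against 17.4 and 13.2 CPM in ETS1 siRNA, and at 82.3 and 72.1 CPM in shCON against 9.76 and 11.1 CPM in shETS1. Squamous markers matched the label of the line: all 12 listed genes were detected in every group, with summed levels of 17045 to 29778 CPM over the 8 libraries. A set of 5 structural RNAs made up at most 0.00339% of counts in the siRNA libraries, 5.61% to 6.63% in shCON and 9.64% to 12.3% in shETS1, so library composition moved with the table and, within the shRNA table, with the knockdown. A gene was called at an adjusted p under 0.1 in edgeR over all genes tested, which gave 502 calls after siRNA (3.41% of 14742 genes) and 9988 after shRNA (60.6% of 16481).

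Promoter sequences of the genes on which the results turn are shown because ETS factors bind DNA around a GGAA core. The windows run from 250 bases before to 50 bases after an annotated RefSeq start in GRCh38.p14, a later build than the GRCh37 used for the counts. The most upstream window of each gene is given 5′ to 3′ on the gene's own strand. Capitals mark CCGGAA or GGAAGT, or their reverse complements TTCCGG and ACTTCC, where a search of both strands found them; the 2 motifs can overlap in the GGAA core. GHR lies at chr5:42423189-42423488 on the plus strand, GRB10 at chr7:50793404-50793703 on the minus strand, IGFBP3 at chr7:45921223-45921522 on the minus strand and IGFBP6 at chr12:53097417-53097716 on the plus strand.
GHR: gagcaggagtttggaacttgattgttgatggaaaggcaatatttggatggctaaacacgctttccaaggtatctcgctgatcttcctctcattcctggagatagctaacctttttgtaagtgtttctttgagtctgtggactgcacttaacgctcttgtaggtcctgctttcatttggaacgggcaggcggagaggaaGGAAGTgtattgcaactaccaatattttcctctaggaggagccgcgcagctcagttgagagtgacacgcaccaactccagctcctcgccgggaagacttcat
GRB10: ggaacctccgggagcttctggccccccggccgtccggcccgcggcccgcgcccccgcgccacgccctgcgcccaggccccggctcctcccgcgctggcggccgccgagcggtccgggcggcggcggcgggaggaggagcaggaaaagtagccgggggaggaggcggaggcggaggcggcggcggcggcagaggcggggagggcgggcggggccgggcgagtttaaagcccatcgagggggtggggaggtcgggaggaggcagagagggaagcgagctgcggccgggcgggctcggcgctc
IGFBP3: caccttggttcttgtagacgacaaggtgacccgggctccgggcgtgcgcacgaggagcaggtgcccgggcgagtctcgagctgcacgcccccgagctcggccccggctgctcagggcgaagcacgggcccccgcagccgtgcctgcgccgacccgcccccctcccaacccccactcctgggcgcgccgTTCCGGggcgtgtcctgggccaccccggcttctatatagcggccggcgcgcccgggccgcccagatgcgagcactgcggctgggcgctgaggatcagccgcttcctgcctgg
IGFBP6: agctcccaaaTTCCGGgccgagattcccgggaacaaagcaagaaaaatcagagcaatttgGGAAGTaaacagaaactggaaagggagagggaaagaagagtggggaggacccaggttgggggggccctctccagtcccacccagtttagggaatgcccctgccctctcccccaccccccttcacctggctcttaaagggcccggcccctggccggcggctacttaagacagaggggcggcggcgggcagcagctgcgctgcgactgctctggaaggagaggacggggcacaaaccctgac

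The table held 21 windows for 9 of the 10 genes, with no entry for IGFBP7. One of the motifs was present in 7 of the 21 windows, from GHR (4 of its 7 windows), IRS1, IGFBP3 and IGFBP6. None of the 5 windows of GRB10 held one. Among all 35116 windows in the table, 17.2% held CCGGAA, 22.8% held GGAAGT and 33.2% held either. A match is a description of the sequence and not a binding site.

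Among the receptors, GHR stood apart in shETS1. GHR had 1.91 and 1.97 CPM in shCON and 30.4 and 34.6 CPM in shETS1, from 48 and 51 reads against 698 and 873. Its log2 fold change was 4.07 (SE 0.14), a 16.7-fold rise that ranked 34th from the top among 16481 genes. After siRNA the gene stayed near the low end of detection, at 1.21 and 3.24 CPM in siRNA control and 2.33 and 1.23 CPM in ETS1 siRNA. The 2 siRNA groups overlapped, and the log2 fold change was -0.31 (SE 0.50) from 24 to 52 reads per library. Leaving out siRNA control replicate 2 turned that value to 0.54, and leaving out ETS1 siRNA replicate 2 turned it to 0.091. In GRCh37 GHR lies on chromosome 5 from 42423541 to 42721980 on the plus strand, and no exon of it overlaps an exon of another annotated gene.

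Markers of other cell types moved beside GHR in the shRNA table. The 10 fibroblast markers summed to 271 to 296 CPM in shCON and 2160.1 to 2264 CPM in shETS1. LUM, with mean levels of 171 and 1323 CPM, and DCN, with 67.8 and 661 CPM, made up most of that sum. PDGFRB had 9 and 8 reads and THY1 had 2 and 4 reads in the shETS1 libraries, and neither could be tested. The other 8 were all called higher, beside a background of 29.7% of all genes. POSTN, with 2 and 4 reads in shCON against 88 and 88 in shETS1, passed the filter on low counts through shETS1 alone. The direction of its call was thus fixed. The 8 adipocyte markers summed to 75.7 to 88.1 CPM in shCON and 393 to 409 CPM in shETS1, with LEP at 0 in shETS1. CD36 made up most of that sum, with mean levels of 69.6 and 375 CPM. Of the 3 tested genes 2 were called higher, beside 29.7% of all genes. The 6 endothelial markers summed to 2.27 to 2.39 CPM and 24.7 to 24.8 CPM, of which KDR had mean levels of 1.76 and 23.9 CPM. TEK had 2 and 3 reads in shCON and 16 and 24 in shETS1. KDR and TEK were the 2 that could be tested, and both were called higher, beside 29.7% of all genes. TEK passed the filter on low counts through shETS1 alone, so it could only come out higher and its call supports nothing. The defining endothelial genes PECAM1 and CDH5 were at 0 in all shRNA libraries. VWF had 5 and 7 reads in shCON and 2 in each shETS1 library, and CLDN5 had 4 and 8 against 0. Neither VWF nor CLDN5 could be tested. The 6 leukocyte markers summed to 3.54 to 3.62 CPM and 3.01 to 4.01 CPM, with MS4A1 at 0 in both groups. Squamous markers also summed higher, at 17389 to 17489 CPM in shCON and 28933 to 29353 CPM in shETS1, mostly from KRT5, KRT14 and KRT6A. Of these 12 markers 7 were called higher, beside 29.7% of all genes. TP63, SFN and EPCAM were the 3 called lower, beside 30.9%, and DSP and CDH1 were not called. The part of these markers in the level of GHR was not tested. In bulk libraries, more cells of a type and more RNA per cell cannot be told apart, and the same holds for fewer and less.

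IGF1R and INSR had lower levels in shETS1. IGF1R, the receptor of IGF1 and IGF2, had 66.4 and 51.8 CPM in shCON and 28.1 and 40.2 CPM in shETS1. The groups did not overlap, and the log2 fold change was -0.79 (SE 0.13), a 1.72-fold lower level. The value depended on single libraries, from -0.56 without shETS1 replicate 1 to -1.07 without shETS1 replicate 2. INSR, the insulin receptor, had 5.65 and 5.05 CPM in shCON and 2.79 and 3.09 CPM in shETS1. Its log2 fold change was -0.86 (SE 0.18), 1.81-fold lower. After siRNA the libraries of both genes overlapped between groups. IGF1R had 168 and 151 CPM in siRNA control and 174 and 138 CPM in ETS1 siRNA, and INSR 2.92 and 3.80 CPM against 3.67 and 3.30 CPM. The log2 fold changes were -0.034 (SE 0.15) for IGF1R and 0.055 (SE 0.25) for INSR. In GRCh37 IGF1R spans 99191768 to 99507759 on the plus strand of chromosome 15, and INSR spans 7112266 to 7294425 on the minus strand of chromosome 19.

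**Figure D1:**
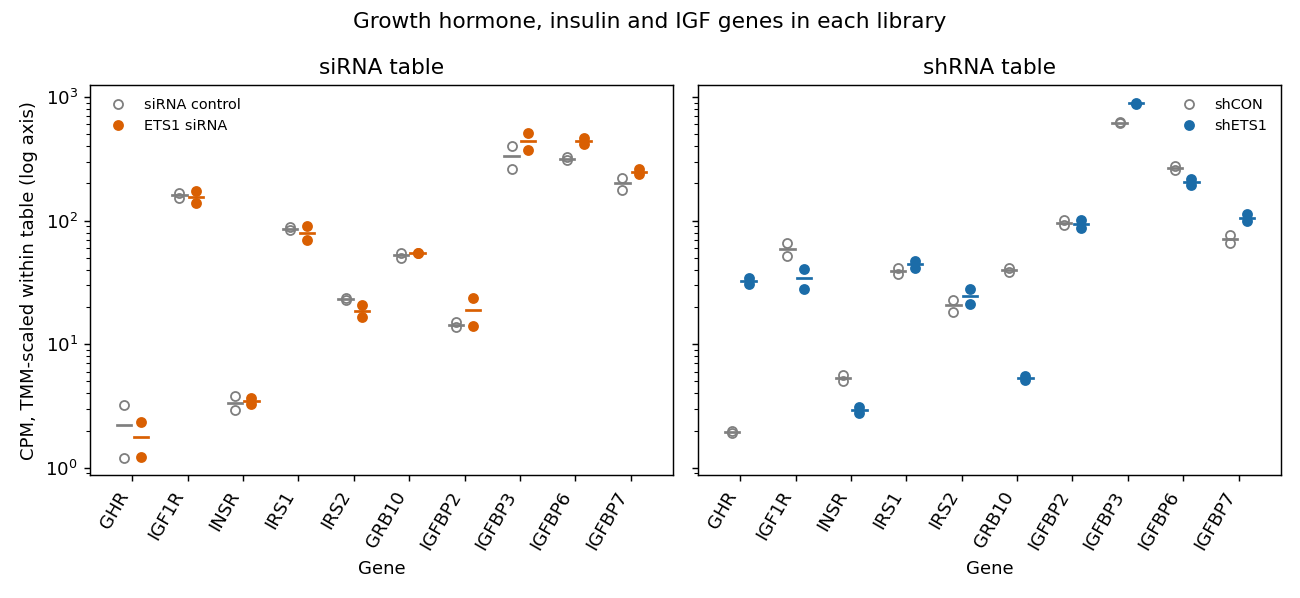
Level of each gene in each library, in CPM on a log axis, with siRNA libraries on the left and shRNA libraries on the right. Each point is 1 library and each bar the mean of 2. GHR lies at 1.91 and 1.97 CPM in shCON and at 30.4 and 34.6 CPM in shETS1, and GRB10 shows the opposite gap, from 41.2 and 38.0 CPM to 5.53 and 5.15 CPM.

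Of the adaptors, GRB10 fell to a low level in shETS1 while IRS1 and IRS2 did not pass the threshold. GRB10 had 41.2 and 38.0 CPM in shCON and 5.53 and 5.15 CPM in shETS1, from 1036 and 987 reads against 127 and 130. Its log2 fold change was -2.89 (SE 0.11), 7.42-fold lower, which ranked 76th from the bottom of the 16481 genes. After siRNA GRB10 had 54.3 and 50.3 CPM in siRNA control and 54.5 and 54.3 CPM in ETS1 siRNA. Both ETS1 siRNA libraries lay above both controls by a narrow margin, with a log2 fold change of 0.057 (SE 0.12). GRB10 lies on chromosome 7 from 50657760 to 50861159 on the minus strand of GRCh37, without exonic overlap.

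IRS1 and IRS2, the docking proteins that couple the receptors to PI3K, had small positive values after shRNA. IRS1 had 41.3 and 37.2 CPM in shCON and 41.5 and 47.3 CPM in shETS1, with both knockdown libraries just above both controls, and its log2 fold change was 0.18 (SE 0.09). IRS2 had 22.9 and 18.3 CPM in shCON and 21.1 and 27.8 CPM in shETS1, with overlapping groups and a log2 fold change of 0.25 (SE 0.13). Neither was called. IRS1 lies on chromosome 2 from 227596028 to 227664536 and IRS2 on chromosome 13 from 110405042 to 110438930, both on the minus strand. After siRNA both had negative values. IRS1 had 84.2 and 88.4 CPM in siRNA control and 90.3 and 69.6 CPM in ETS1 siRNA, and the overlapping groups gave a log2 value of -0.11 (SE 0.15). IRS2 had 22.8 and 23.8 CPM against 20.7 and 16.7 CPM, or -0.32 (SE 0.16) on the log2 scale, with both knockdown libraries below both controls. An unnamed gene on the opposite strand overlaps 115 exonic bases of IRS2, and reads of the 2 cannot be told apart without strand.

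The binding proteins IGFBP3 and IGFBP7 were higher, IGFBP6 was lower and IGFBP2 was not called in shETS1. IGFBP3, the main carrier of IGFs in blood, had 612 and 632 CPM in shCON and 885 and 900.2 CPM in shETS1. Its log2 fold change was 0.52 (SE 0.08), 1.44-fold higher. IGFBP7, a secreted protein that binds IGFs weakly, had 66.1 and 76.0 CPM in shCON and 112 and 99.7 CPM in shETS1, a log2 fold change of 0.58 (SE 0.08). The groups were apart for both genes, and the margins were well below that of GHR. Exons of POLR2B and of the antisense gene IGFBP7-AS1 overlap 354 exonic bases of IGFBP7 on the opposite strand, so its reads may include some of theirs. IGFBP3 lies on chromosome 7 from 45951844 to 45961473 and IGFBP7 on chromosome 4 from 57896939 to 57976551, both on the minus strand.

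IGFBP6, which prefers IGF2, had 259 and 275 CPM in shCON and 217 and 193 CPM in shETS1, and its log2 fold change was -0.38 (SE 0.08). IGFBP2, which binds both IGFs, had 91.4 and 102 CPM in shCON and 101 and 86.9 CPM in shETS1. The IGFBP2 libraries overlapped, with a log2 fold change of -0.036 (SE 0.08) whose sign turned without shCON replicate 2 or shETS1 replicate 2, to 0.044 and 0.069. IGFBP6 lies on chromosome 12 from 53491220 to 53496129 and IGFBP2 on chromosome 2 from 217497551 to 217529159, both on the plus strand.

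After siRNA all 4 chosen binding proteins had positive log2 fold changes, with a median of 0.40 beside 0.0018 over all genes tested. Binding proteins outside the choice did not share this. IGFBP4 stood at 0.18 (SE 0.14) and IGFBP5 at -0.61 (SE 0.32), neither called. IGFBP1 had 6 and 7 reads in siRNA control and 3 and 3 in ETS1 siRNA. The 8 tested genes among the other binding proteins and their proteases had a median of -0.17. In the same comparison the 12 squamous markers had a median of 0.38 and summed to 17045 to 22200.3 CPM in siRNA control and 24992 to 29778 CPM in ETS1 siRNA, and the 10 fibroblast markers had a median of 0.28. The part of these markers in the values of the binding proteins was not tested. IGFBP6 had 307 and 328 CPM in siRNA control and 417 and 466 CPM in ETS1 siRNA, which gave 0.48 on the log2 scale (SE 0.13), opposite in sign to its value after shRNA. IGFBP7 had 179 and 223 CPM against 261 and 237 CPM, a log2 fold change of 0.31 (SE 0.15). Both ETS1 siRNA libraries of these 2 genes lay above both controls. IGFBP3 had 264 and 404 CPM in siRNA control and 512 and 374 CPM in ETS1 siRNA, and its groups overlapped around a log2 fold change of 0.41 (SE 0.22). IGFBP2 had 15.1 and 13.7 CPM against 14.0 and 23.6 CPM, a log2 fold change of 0.39 (SE 0.24). The IGFBP2 value rested on ETS1 siRNA replicate 2, without which it was -0.048.

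**Figure D2:**
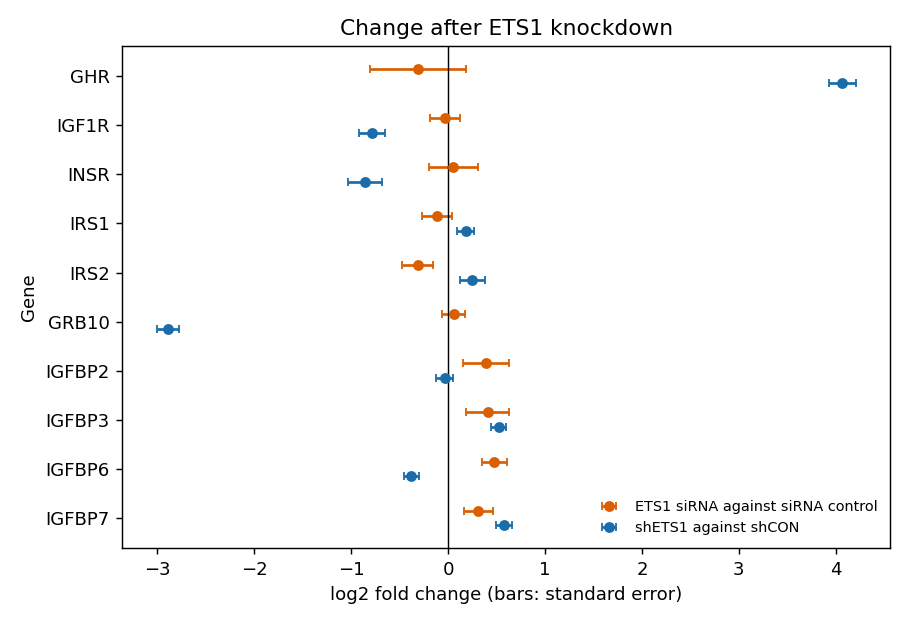
Log2 fold change of each gene after siRNA (orange) and after shRNA (blue), each against its own control, with bars of 1 standard error. GHR at 4.07 and GRB10 at -2.89 after shRNA lie far from the other values, which run from -0.86 to 0.58.

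Counted together, 7 of the 10 genes were called after shRNA. GHR, IGFBP3 and IGFBP7 were the 3 called higher, beside a background of 29.7% of all genes called higher, and GRB10, IGF1R, INSR and IGFBP6 were the 4 called lower, beside 30.9%. The median log2 fold change of the 10 was 0.072, beside 0.00066 over all genes. Since 60.6% of all genes were called in this comparison and the genes were chosen on it, nothing is read from their number. With library size alone as the scaling, the median of all genes after shRNA moved to -0.12 and the calls split into 3624 higher and 6269 lower in place of 4900 and 5088, while the 10 genes kept 3 and 4. After siRNA, edgeR called 0 of the 10, with 1 at an unadjusted p under 0.05 (IGFBP6), beside 2721 of 14742 genes, and 1 called by DESeq2 (IGFBP6 again). The background shares after siRNA were 1.13% called higher and 2.27% called lower, and the median of the 10 was 0.056.

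The shRNA effect minus the siRNA effect, fitted in 1 model of all 8 libraries, was called for 5 of the 10 genes. GHR, at 4.35 (SE 0.52) on the log2 scale, was the 1 called higher, beside a background of 15.1% of 17190 genes. GRB10 at -2.97 (SE 0.15), INSR at -0.94 (SE 0.28), IGFBP6 at -0.88 (SE 0.14) and IGF1R at -0.77 (SE 0.26) were the 4 called lower, beside 19.7%. In either direction the background was 34.8%. The remaining differences were 0.54 for IRS2, -0.45 for IGFBP2, 0.27 for IRS1, 0.25 for IGFBP7 and 0.093 for IGFBP3. The kind of knockdown, its duration and the library composition all differ between the tables and cannot be told apart.

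**Figure D3:**
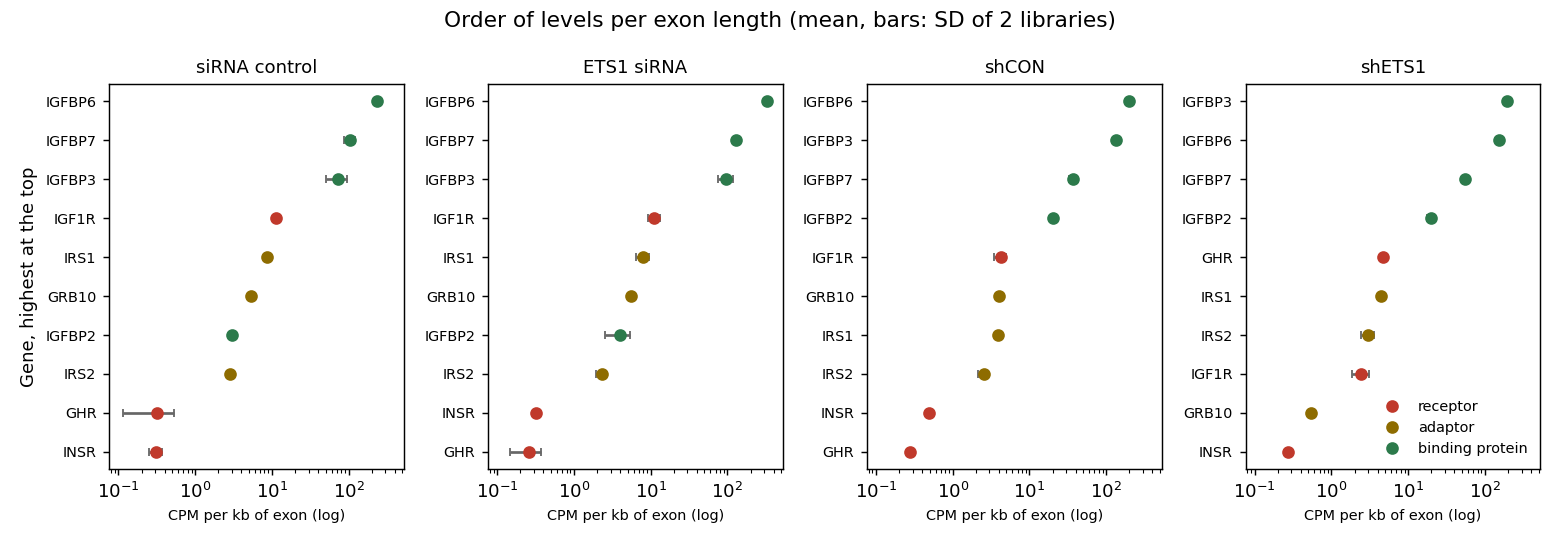
Mean level per kilobase of exon in each group, in CPM per kb on a log axis, ordered from high to low, with bars of 1 SD over 2 libraries. IGFBP6 leads in 3 groups at 236, 328 and 198 CPM per kb, IGFBP3 leads in shETS1 at 195 CPM per kb, and GHR moves from the bottom at 0.279 in shCON to position 5 at 4.68 in shETS1.

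Levels were compared between genes only per kilobase of exon, using the union of annotated exons. This union can be longer than the transcript expressed, by amounts that differ between genes, so the order depends on these lengths. In siRNA control the order was led by IGFBP6 (236 CPM per kb), IGFBP7 (104) and IGFBP3 (73.0), followed by IGF1R (11.5), IRS1 (8.61), GRB10 (5.34), IGFBP2 (3.03), IRS2 (2.86), GHR (0.320) and INSR (0.310). Libraries of neighbouring genes overlapped for IGFBP2 with IRS2 and for GHR with INSR. In ETS1 siRNA only INSR and GHR changed places, at 0.322 and 0.256 CPM per kb, and they overlapped there too.

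In shCON the leading levels per kilobase were IGFBP6 (198 CPM per kb), IGFBP3 (136), IGFBP7 (36.8) and IGFBP2 (20.3). IGF1R (4.24), GRB10 (4.05) and IRS1 (3.91) overlapped in libraries with their neighbours in the order, and IRS2 (2.53), INSR (0.494) and GHR (0.279) followed. In shETS1 the order was IGFBP3 (195), IGFBP6 (152), IGFBP7 (54.9), IGFBP2 (19.8), GHR (4.68), IRS1 (4.43), IRS2 (2.999), IGF1R (2.45), GRB10 (0.546) and INSR (0.271). There the libraries of GHR overlapped with those of IRS1, and those of IRS2 with those of IGF1R. GHR, the lowest receptor per kilobase in shCON, was thus the highest of the 3 receptors in shETS1, and GRB10 went from position 6 to position 9.

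The genes with the pattern most like GHR across the 8 libraries, by Euclidean distance of log2 CPM centred within each table, were SEMA6D (distance 1.21), ANGPT1 (1.24) and KDR (1.28), out of 10820 candidates. SEMA6D is a semaphorin, ANGPT1 the ligand of the receptor TIE2, and KDR a receptor of VEGF. Their log2 fold changes after shRNA were 3.12, 3.02 and 3.76, below the 4.07 of GHR. Nearest to GRB10 were TFPI2 (0.40), an inhibitor of serine proteases, PHGDH (0.41), the first enzyme of serine synthesis, and RPS16 (0.45), a ribosomal protein with near-identical copies that may share its reads. Their log2 fold changes after shRNA were -2.61, -3.07 and -2.99, close to the -2.89 of GRB10. All 4 siRNA and all 4 shRNA libraries entered each distance. KDR had only 2 to 5 reads per siRNA library and was not tested there, so its siRNA part of the distance rests largely on the prior count.

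Hormones and growth factors of the listed ligand families, apart from IGF2, were nearly unread in the culture. GH1, CSH1, CSH2, PRL and INS, encoding growth hormone, placental lactogens, prolactin and insulin, had 0 reads in all 8 libraries, and GH2 had 1 read in 1 library. IGF1 had 0 to 7 reads per library, INSL3 0 to 3 and RLN2 0 to 6. IGF2 had 58.6 and 33.7 CPM in siRNA control and 39.6 and 59.9 CPM in ETS1 siRNA, from 540 to 1215 reads. In the shRNA table IGF2 had 13 to 28 reads per library, at 1.11 and 0.886 CPM in shCON and 0.871 and 0.515 CPM in shETS1. IGF2 was not called in either comparison, with log2 fold changes of 0.11 and -0.54.

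Of 121 other genes of the pathway, 102 could be tested after siRNA and 6 were called, 1 higher and 5 lower, beside 3.41% of all genes. The median log2 fold change of the list was -0.013, beside 0.0018 over all genes, and 23 of its 102 genes had an unadjusted p under 0.05, beside 2721 of all 14742 genes. PTPN11, the phosphatase SHP2 that acts below receptor kinases, had 326 and 289 CPM in siRNA control and 133 and 111 CPM in ETS1 siRNA, and fell by 1.33 on the log2 scale (SE 0.15, edgeR adjusted p = 0.011). FRS2, a docking protein best known from FGF receptors, had 62.4 and 54.4 CPM against 30.7 and 26.5 CPM, and fell by 1.03 (SE 0.14, adjusted p = 0.0162). Both kept their call in every alternative run.

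The other calls after siRNA were less stable. The sorting receptor SORL1 fell by 0.92 on the log2 scale (SE 0.15, edgeR adjusted p = 0.0313) and the ubiquitin ligase NEDD4, a partner of GRB10, fell by 0.79 (SE 0.14, adjusted p = 0.0444). PIK3R1, the p85-alpha regulatory subunit of PI3K, fell by 0.61 (SE 0.14, adjusted p = 0.093), and SESN3, a sestrin that restrains mTOR and a known FOXO target, rose by 0.73 (SE 0.15, adjusted p = 0.0641). SORL1, NEDD4, PIK3R1 and SESN3 lost their calls without siRNA control replicate 1, and PIK3R1 also without siRNA control replicate 2 or ETS1 siRNA replicate 2.

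**Figure D4:**
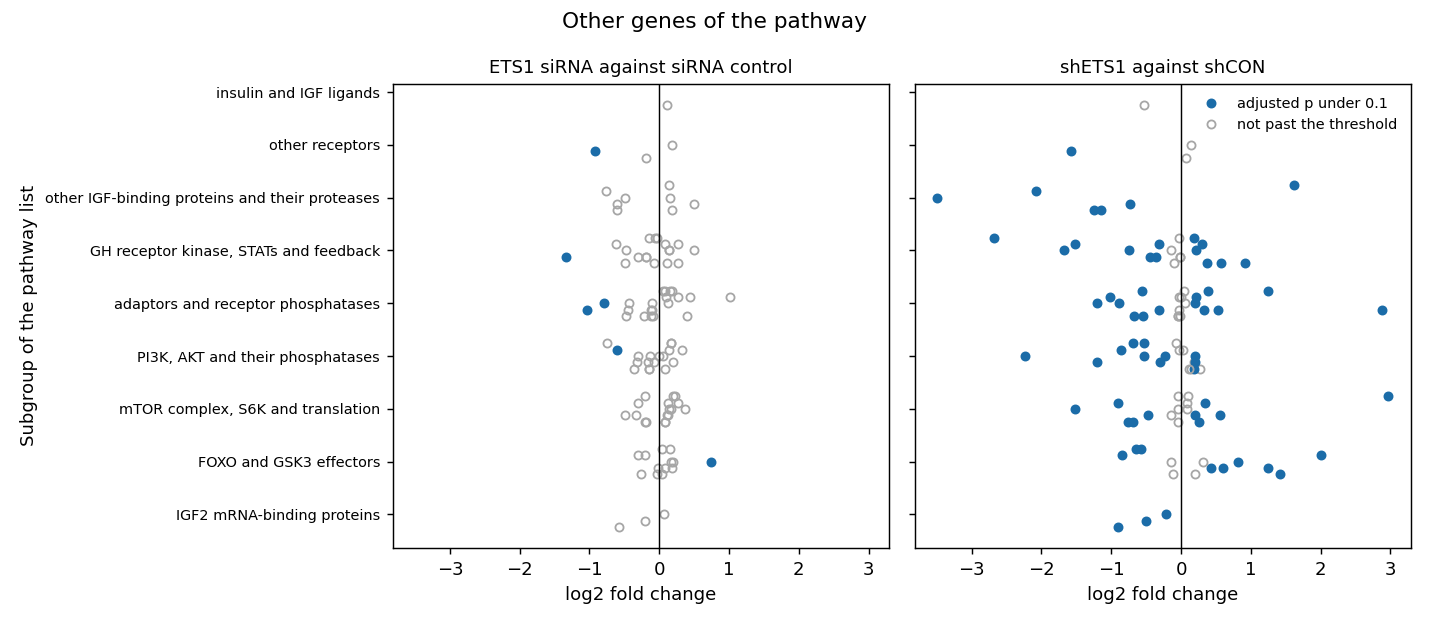
Log2 fold change of each tested gene of the pathway list, by subgroup, after siRNA (left) and after shRNA (right). Filled points passed an adjusted p of 0.1: 6 of 102 after siRNA and 67 of 101 after shRNA, beside 3.41% and 60.6% of all genes. The highest called value was for DEPTOR at 2.96, with spread on both sides of 0 in most subgroups after shRNA.

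After shRNA, 67 of 101 tested pathway genes were called, 28 higher and 39 lower, beside 60.6% of all genes, and the list's median log2 fold change was -0.038 beside 0.00066. With library size alone as the scaling, 18 were higher and 49 lower. The list as a whole thus moved in both directions, at about the share of calls seen over all genes.

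Outside the cell, all 6 tested genes among the other IGF-binding proteins and their proteases were called after shRNA, 1 higher and 5 lower. Over all genes 29.7% were called higher and 30.9% lower. HTRA1, a secreted serine protease that can cleave IGF-binding proteins, had 62.6 and 66.9 CPM in shCON and 211 and 187 CPM in shETS1, a difference on the log2 scale of 1.62 (SE 0.08, edgeR adjusted p = 3.21e-11). STC2, a stanniocalcin that inhibits the protease PAPP-A, had 28.0 and 23.3 CPM against 5.75 and 6.34 CPM, a difference on the log2 scale of -2.08 (SE 0.13, adjusted p = 4.48e-10). IGFBP4, the main substrate of PAPP-A, had 68.3 and 63.5 CPM against 27.2 and 32.3 CPM, a difference on the log2 scale of -1.15 (SE 0.09, adjusted p = 1.23e-08). Among the other receptors SORL1 was the 1 called of 3 tested, at -1.57 (SE 0.08).

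Around the growth hormone receptor, 13 of 18 kinases, STATs and feedback genes were called after shRNA, beside 60.6% of all genes. Of the 13, 6 were higher and 7 lower. SH2B3, an adaptor that restrains JAK2, fell by 1.67 on the log2 scale (SE 0.13, edgeR adjusted p = 6.46e-09). The kinase JAK1 rose from 110.1 and 116 CPM to 218 and 211 CPM, a difference on the log2 scale of 0.92 (SE 0.07, adjusted p = 1.08e-08). PTPN11 fell by 0.44 (SE 0.08, adjusted p = 0.000168), less than after siRNA. JAK2, the kinase bound to GHR, had mean levels of 7.35 CPM in shCON and 5.70 CPM in shETS1, and was called lower at -0.36 (SE 0.15) on the log2 scale. Of the STAT5 factors, STAT5A was called higher at 0.58 (SE 0.16), and STAT5B, with mean levels of 45.0 and 44.6 CPM, was not called. JAK2, STAT5A and STAT5B were chosen for mention after their values were seen.

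Of the adaptors and receptor phosphatases, 14 of 22 were called after shRNA, 7 in each direction, beside 60.6% of all genes. CBLB and CBL, related ubiquitin ligases that act on activated receptors, moved opposite ways, at 1.24 (SE 0.08, edgeR adjusted p = 1.74e-09) and -1.02 (SE 0.13, adjusted p = 3.37e-06). PTPRF, the receptor phosphatase LAR, fell by 1.20 (SE 0.11, adjusted p = 5.88e-08). FRS2 and NEDD4, lower after siRNA, were called higher after shRNA by 0.20 (SE 0.08) and 0.22 (SE 0.07) on the log2 scale, and the difference between the knockdowns was called for both.

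Of the PI3K and AKT genes 11 of 18 were called after shRNA, 3 higher and 8 lower, beside 60.6% of all genes. TRIB3, a pseudokinase that binds AKT, had 47.9 and 46.6 CPM in shCON and 10.1 and 9.99 CPM in shETS1, a difference on the log2 scale of -2.24 (SE 0.10, edgeR adjusted p = 4.42e-12). PHLPP1, a phosphatase of AKT, fell by 0.86 (SE 0.17, adjusted p = 0.000322), and PIK3R2, the p85-beta subunit of PI3K, fell by 0.53 (SE 0.10, adjusted p = 0.000173). Of the mTOR and translation genes 10 of 17 were called, 5 in each direction, beside the same 60.6%. DEPTOR, an inhibitor within the mTOR complexes, had 2.66 and 3.51 CPM in shCON and 23.7 and 24.6 CPM in shETS1, a difference on the log2 scale of 2.96 (SE 0.14, adjusted p = 1.41e-11). MLST8, a subunit of both mTOR complexes, fell by 1.52 (SE 0.10, adjusted p = 6.94e-10), and EIF4EBP1, a translation repressor inactivated by mTOR, fell by 0.90 (SE 0.08, adjusted p = 3.01e-08).

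Among FOXO and GSK3 effectors 9 of 13 were called after shRNA, 6 higher and 3 lower, beside 60.6% of all genes. TXNIP, which restrains glucose uptake, had 393 and 433 CPM in shCON and 1722 and 1576 CPM in shETS1, a difference on the log2 scale of 2.00 (SE 0.09, edgeR adjusted p = 8.48e-12). The sestrins SESN1 and SESN3 rose by 1.42 (SE 0.10, adjusted p = 4.85e-09) and 1.25 (SE 0.08, adjusted p = 1.73e-09). SESN3 was the 1 pathway gene called higher after siRNA, and it was called higher after shRNA too. All 3 IGF2 mRNA-binding proteins were called lower after shRNA, beside 30.9% of all genes. They were IGF2BP1 at -0.90 (SE 0.13), IGF2BP2 at -0.50 (SE 0.09) and IGF2BP3 at -0.21 (SE 0.07). IGF2BP3 lost its call without shCON replicate 2 and with all 8 libraries in one fit.

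A short sequence shared by part of the genes is shown because an earlier analysis of these data had picked it for its link to siRNA values. The heptamer ACCTCAA occurred once each in the 3′ UTRs of GHR, IGF1R and INSR, and in none of the other 7 genes. These 3′ UTRs were 3413 to 7088 bases long in the receptors, 3609 to 4960 in the adaptors and 250 to 1605 in the binding proteins. Of the 6 pathway genes called after siRNA, FRS2 and NEDD4 held 1 copy each, and SORL1, PTPN11, PIK3R1 and SESN3 held none. Over all genes tested with an annotated 3′ UTR, 16.0% held a copy. Median log2 fold changes after siRNA were 0.020 over 10180 genes without a copy, -0.11 over 1610 with 1 copy and -0.17 over 324 with more. The heptamer was picked on these same values, and the 3 sets were not matched for 3′ UTR length. The medians are thus a description and support nothing. The 3 receptors stood at -0.31, -0.034 and 0.055 in that comparison, on both sides of these medians, and the part of the heptamer in their values was not tested.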

How the data were processed

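RNA was sequenced from 8 libraries of SCC25 cells, 2 per group, with groups and replicate numbers taken from the labels. The authors prepared TruSeq RNA libraries, sequenced single-end reads, aligned these with TopHat2 2.1.1 and Bowtie2 2.2.6 against GRCh37, and counted reads per gene symbol with featureCounts 1.5.0 (versions from the submitters' processing notes). The deposited values are these raw counts, without normalization, in a table for each kind of knockdown, and total counts ranged from 15954616 to 25953213. Settings for strand and for multiply mapped reads are not given in the sources used here. The study calls the siRNA replicates biological; for the shRNA libraries nothing states separate cultures, so p-values measure the spread between these libraries, which may be technical.

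For each knockdown against its control, edgeR 4.0.16 (R 4.3.3) gave a two-sided quasi-likelihood F-test after TMM scaling and filterByExpr, without covariates, at a Benjamini-Hochberg adjusted p under 0.1 over all genes tested. The difference between the knockdowns was a contrast in a fit of all 8 libraries. Each standard error is the log2 fold change divided by the root of its F value. The common dispersion was 0.0192 for the siRNA and 0.00402 for the shRNA libraries, so the siRNA comparison was the less precise. Replicates differed by more than counting error (chi-square over degrees of freedom, 4.32 to 15.4).

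The 10 genes, the pathway and marker lists, the motifs and the heptamer were chosen with earlier results of these data known. Named in the text are the 10 genes, ETS1, all listed ligands, up to 3 called genes per pathway subgroup and knockdown by adjusted p (mean of at least 5 CPM, groups apart), and the 3 genes nearest to GHR and to GRB10, the largest rise and fall among the 10 after shRNA, with a prior count of 2 and a mean of at least 5 CPM in the shRNA table. Gene models came from GENCODE v44 lifted to GRCh37, and promoter windows from RefSeq on GRCh38.p14, without conversion between builds. The pipeline was tested on simulated data. The alternatives were DESeq2's size factors, library size only, library sizes without the structural RNAs, a minimum of 10 counts in every library, genes unfiltered, DESeq2 1.42.0, an adjusted p under 0.05, a block for the replicate number, one fit of the 8 libraries together and leaving out each library in turn.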

Additional observations from a re-analysis of the deposited data

Results flagged for a closer look

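Differences between the knockdowns passed the threshold for 5 of the 10 genes, beside 34.8% of all genes tested, in an edgeR fit of all 8 libraries. The shRNA effect minus the siRNA effect on the log2 scale was 4.35 for GHR, -2.97 for GRB10, -0.94 for INSR, -0.88 for IGFBP6 and -0.77 for IGF1R. The genes were chosen on the comparisons that enter these differences, so the values are a description. IGFBP6 had values of opposite sign, at 0.48 after siRNA, where edgeR did not call it, and -0.38 after shRNA. GRB10 stood at -2.89 after shRNA and at 0.057 (SE 0.12) after siRNA, a value smaller than its standard error. The siRNA libraries of GHR, INSR and IGF1R overlapped between groups.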

How the results depend on the processing

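Counts of calls after siRNA moved with the processing, and those after shRNA stayed within 1.5 times. From 0 of the 10 genes, 6 of the pathway list and 502 of all genes after siRNA, the calls became 2, 17 and 1466 without a filter on low counts and 1, 19 and 2166 with all 8 libraries in one fit. DESeq2 gave 1 of the 10 and 797 of all genes, at least 10 counts in every library gave 1 of the 10, and an adjusted p under 0.05 gave 190 of all genes. Leaving out each library in turn gave 0 to 2 of the 10, 2 to 17 of the list and 72 to 1478 of all genes, lowest without siRNA control replicate 1 and highest without ETS1 siRNA replicate 1. After shRNA 7 to 9 of the 10 and 54 to 74 of the list were called under all alternatives.

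Same-numbered libraries did not deviate together, since their deviations correlated at -0.57 (siRNA) and -0.13 (shRNA) across genes. The negative siRNA value means that control and knockdown libraries with different replicate numbers deviated together. The main siRNA fit has no term for this and counts it as spread between replicates. A gene not called after siRNA is thus not shown to be unchanged. With the replicate block, 3 of the list and 97 of all genes were called after siRNA. Crossing the numbers, an alternative chosen after seeing the data, gave 4, 29 and 3238 calls after siRNA. The main fit gave 0 of the 10 genes, 6 of the list and 502 of all genes.

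Signs turned only where a library was left out and only for values that were not called. After siRNA the log2 fold changes ranged from -0.88 to 0.54 for GHR, -0.21 to 0.12 for IGF1R, -0.13 to 0.25 for INSR, -0.31 to 0.062 for IRS1 and -0.048 to 0.72 for IGFBP2. After shRNA IGFBP2 ranged from -0.16 to 0.069, and in the difference between the knockdowns IGFBP3 ranged from -0.26 to 0.36. In that difference 4 to 8 of the 10 genes were called when a library was left out, with 8 without ETS1 siRNA replicate 1. IGF1R lost its call with the replicate block (adjusted p = 0.115) and without siRNA control replicate 2, shCON replicate 1 or shETS1 replicate 1, and INSR lost its call with DESeq2 (adjusted p = 0.104) and without siRNA control replicate 1, shCON replicate 1 or shETS1 replicate 1. The cause of these changes was not tested. GHR had 24 to 52 reads per siRNA library and an SE of 0.50 after siRNA, so its change there was poorly determined.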

Other observations

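Some genes of the pathway list fell outside the rule for named genes and were picked here after their values were seen. Feedback inhibitors of cytokine receptors moved in both directions after shRNA. SOCS1, SOCS2 and CISH were called lower, SOCS4, SOCS6 and SOCS7 were called higher, at 0.37, 0.22 and 0.30 on the log2 scale, and SOCS3 and SOCS5 were not called. SOCS2, which STAT5 is known to induce, had 6.44 and 7.25 CPM in shCON and 2.31 and 2.46 CPM in shETS1, with a log2 fold change of -1.52 (SE 0.17). CISH had mean levels of 1.76 CPM in shCON and 0.269 CPM in shETS1, with a log2 fold change of -2.68 (SE 0.38). It passed the filter on low counts through shCON alone, so it could only come out lower. PAPPA2, a protease of IGF-binding proteins, had mean levels of 5.67 and 0.495 CPM, with a log2 fold change of -3.50 (SE 0.29), and PAPPA had 34.0 and 20.4 CPM, with a log2 fold change of -0.73 (SE 0.11). After siRNA SOCS2 stood at 0.088 on the log2 scale, CISH at -0.062, PAPPA2 at -0.76 and PAPPA at 0.16, and edgeR called none of the 4, with PAPPA2 at an unadjusted p of 0.014.

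IGF2R, the receptor that clears IGF2, had mean levels of 97.4 CPM in shCON and 102 CPM in shETS1 (log2 fold change 0.073, SE 0.12), and of 351 CPM in siRNA control and 309 CPM in ETS1 siRNA (log2 fold change -0.19). The libraries overlapped between groups in both comparisons, and IGF2R was not called in either.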
